A study of Mus musculus with 6 samples.

Results

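Oxidative phosphorylation in mouse kidney was followed through the transcripts of its subunits. Genes were taken by symbol, as the Nduf, Sdh, Uqcr, Cox and Atp5 subunit families and the protein-coding genes of the mitochondrial genome, with pseudogene symbols left out. Of 32285 genes in the files, 95 matched, and 89 of these reached 20 CPM, which is a gene's summed count normalised to the library total, in at least 1 library and were kept. There were 77 nuclear-encoded members, with 35 in complex I, 4 in complex II, 8 in complex III, 13 in complex IV and 17 in complex V. The other 12 were encoded by the mitochondrial genome, with 6 in complex I, 1 in complex III, 3 in complex IV and 2 in complex V. Just inside the threshold stood Cox6b2, with at most 21.9 CPM, and mt-Atp8, with at most 32.3. Just outside it stood Ndufa4l2, with at most 16.1, and Cox6a2, with at most 4.27. Cox7b2, Cox8b, Cox8c and mt-Nd6 were also left out by it. The symbol rule does not take Cox4i1, Ndufab1, Cyc1 and Cycs. All of these but Cyc1 are described with the related lists.

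Complexes I to IV form the respiratory chain of the inner mitochondrial membrane, which passes electrons to oxygen and pumps protons, and complex V is the ATP synthase that the proton gradient drives. Complexes I, III, IV and V join subunits of both genomes, so they need transcripts made in the nucleus and in the mitochondrion, whereas complex II, succinate dehydrogenase, is encoded in the nucleus alone. The reabsorbing tubule, above all the proximal tubule, the thick ascending limb and the distal convoluted tubule, is known for dense mitochondria that supply the ATP for sodium transport.

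The libraries were 10x Visium sections of frozen kidney, in which a barcoded spot captures RNA from the several cells above it. There was 1 library in each of 6 groups: WT (genotype given as B6C57), Alport syndrome mice (AS, genotype B6.Cg-Col4a5tm1Yseg, an allele of a type IV collagen gene) at 2 months (2m AS) and at 5 months (5m AS), 5m AS labelled as early treated and as late treated with hEV, and a mixed library from a WT female and a heterozygous female. The sources used here do not give the age of the WT and of the mixed animals, nor the dose and dates of treatment. Col4a5 itself was at 11.9, 6.54, 3.39, 5.52, 5.57 and 13.2 scaled CPM (defined below) in the order given next, so it was lower in the 4 libraries of AS mice than in WT and the mixed library. In the order WT, 2m AS, 5m AS, early treated, late treated and mixed, which holds for every series of 6 values, there were 4093, 3212, 1997, 3549, 2892 and 3352 spots and 79699180, 91976637, 52420718, 48940875, 57325650 and 74686937 unique molecular identifiers (UMIs). Any pair of libraries shared between 1361 and 3083 spot barcodes, which are the slide's own barcodes.

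UMIs were summed over each library and divided by an effective library size, giving scaled CPM. Since no group held a second library, no difference could be checked against replicates or tested, and the 95% exact (Clopper-Pearson) intervals in parentheses cover counting error only. A member is counted as higher or lower when its ratio passed 1.5-fold, and the same count over all genes that reached 20 scaled CPM in either compared library is given as background. WT and 5m AS were counted with Space Ranger 1.2.1 and the other libraries with 1.3.1, so for every comparison between these sets the group and the software version cannot be told apart. Of the comparisons below, 5m AS against WT and early against late treated were each made within 1 version.

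The balance between the genomes differed between libraries, and it needs no scaling because both sides come from the same library. The UMIs of the 12 mitochondrially encoded members, divided by those of the 77 nuclear-encoded members, gave 2.11, 1.10, 1.45, 1.15, 1.74 and 0.965. WT thus stood highest and the mixed library lowest, with all counting intervals apart. The nuclear-encoded members alone took 6.43%, 6.99%, 5.88%, 5.56%, 5.23% and 7.91% of the UMIs outside the mitochondrially encoded genes. The mixed library and 2m AS were above WT in this share, and the 3 libraries of 5-month AS mice were below it. In complexes I, IV and V the ratio was lowest in the mixed library and highest in WT. For complex I it was 1.58, 0.681, 1.15, 0.945, 1.54 and 0.584, and for complex IV it was 4.14, 1.95, 2.80, 2.17, 3.22 and 1.79. In complex III, where mt-Cytb is the single mitochondrial gene, it was 2.34, 1.64, 1.45, 1.43, 2.35 and 1.44, so late treated 5m AS stood beside WT there. In complex V it was 1.08, 0.559, 0.715, 0.525, 0.849 and 0.399.

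**Figure D1:**
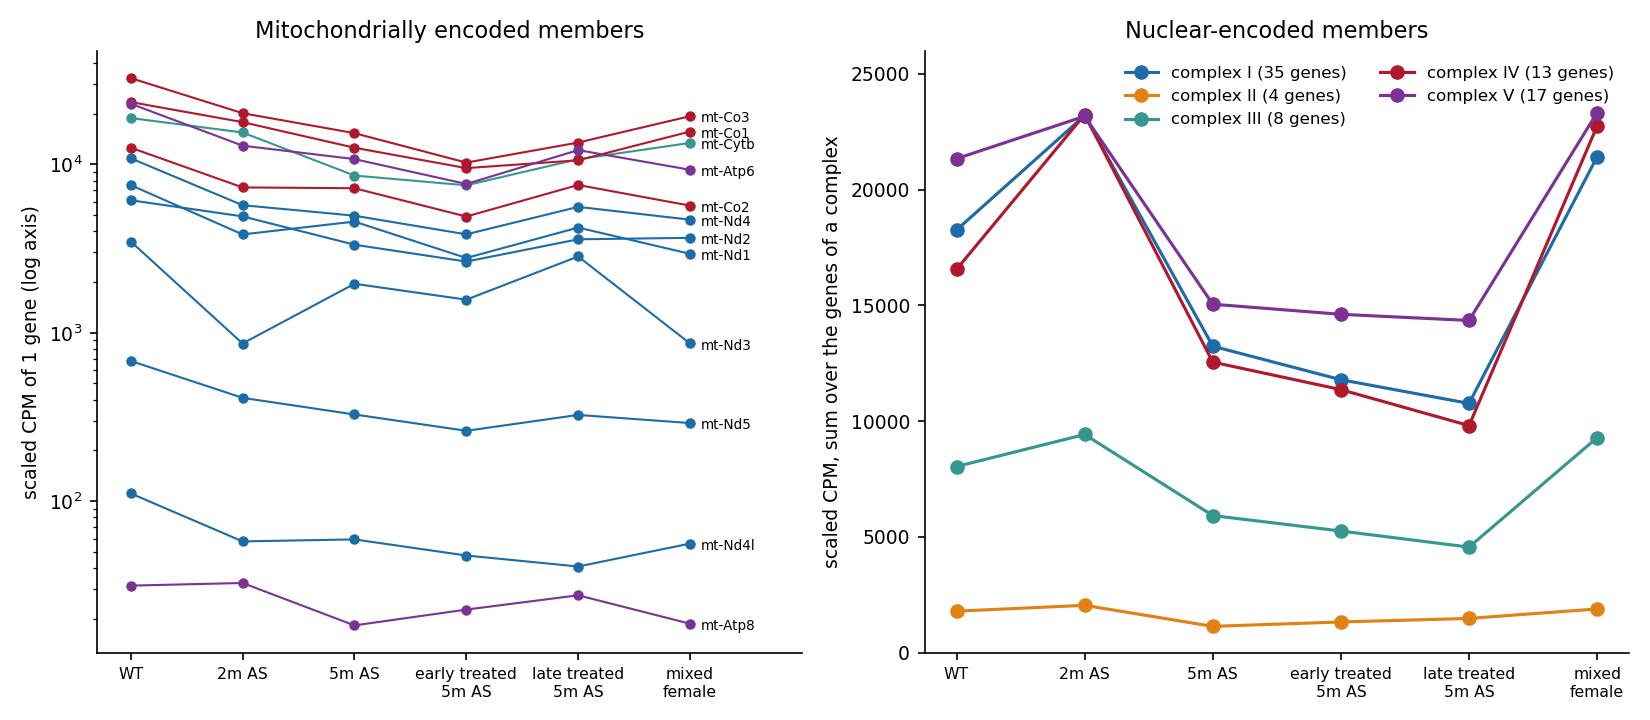
Left, scaled CPM of each of the 12 mitochondrially encoded members in the 6 libraries on a log axis, and right, the scaled CPM summed over the nuclear-encoded members of each complex on a linear axis, with 1 library per group and lines that only join the values of 1 gene or complex. On the left mt-Nd3 stood apart from the others, with 863 in 2m AS and 864 in the mixed library against 3483 in WT, and on the right 2m AS and the mixed library stood above the other libraries in each complex.

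Among the mitochondrially encoded members of complex I, mt-Nd1, which lies in the proton-pumping arm, was at 7533, 3836, 4574, 2779, 4214 and 2944 scaled CPM. mt-Nd4, another subunit of that arm, was at 10867, 5722, 4958, 3841, 5592 and 4695. mt-Nd3 (ENSMUSG00000064360, chrM:9459-9806 in mm10), a small subunit at the junction of the arms, was at 3483, 863, 1954, 1572, 2838 and 864. The level of mt-Nd3 in 2m AS and in the mixed library was thus below that in all 4 other libraries, and its ratio to WT was 0.248 (0.246 to 0.25) in both. No other member, nuclear or mitochondrial, had a ratio to WT this low in 2m AS, 5m AS or the mixed library. mt-Cytb, the catalytic cytochrome of complex III, was at 18846, 15466, 8582, 7512, 10733 and 13411, and here it was 2m AS and the mixed library that lay nearest to WT. The complex IV catalytic subunit mt-Co1 was at 23438, 17816, 12559, 9500.4, 10575 and 15668. mt-Atp6, the channel subunit of complex V, was at 22917, 12913, 10749, 7648, 12156 and 9288.

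Some of these genes overlap on the mitochondrial chromosome and cannot be counted apart in full. mt-Atp8 (chrM:7766-7969) and mt-Atp6 (chrM:7927-8607) share 43 bases, and mt-Nd4l (chrM:9877-10173) and mt-Nd4 (chrM:10167-11544) share 7 bases, in mm10 coordinates of the GENCODE M21 annotation. Each pair is known to stay joined in 1 messenger RNA. The sequences across both junctions are shown because they set which counts belong together, with the shared bases in capitals and 20 bases on either side.
mt-Atp8 into mt-Atp6: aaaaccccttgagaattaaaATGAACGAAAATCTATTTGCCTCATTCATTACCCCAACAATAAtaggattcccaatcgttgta
mt-Nd4l into mt-Nd4: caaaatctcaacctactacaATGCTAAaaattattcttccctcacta
The upstream gene of each pair had few UMIs beside its partner. mt-Atp8 was at 31.5, 32.7, 18.3, 22.7, 27.6 and 18.7 scaled CPM and mt-Nd4l at 111, 57.7, 59.3, 47.5, 40.9 and 56.0. A difference in mt-Atp8 or mt-Nd4l that its partner did not share, as in the treated libraries below, is therefore given as a count. It is not taken as a separate transcript.

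At 2 months, nuclear-encoded subunits had more RNA in the AS library than in WT and mitochondrially encoded ones had less. The median log2 ratio of 2m AS to WT was 0.34 over the 77 nuclear-encoded members and -0.76 over the 12 mitochondrially encoded members, beside -0.03 over all 6607 genes. Of the nuclear-encoded members 16 were at least 1.5-fold higher and 0 were at least 1.5-fold lower, where 8.57% of all genes were higher and 7.27% lower. Of the mitochondrially encoded members 8 were lower and 0 higher. By complex, the nuclear-encoded medians were 0.36 in complex I, 0.18 in complex II, 0.27 in complex III, 0.41 in complex IV and 0.15 in complex V. With plain CPM the split over all genes was 5.58% higher and 11.2% lower, and 10 nuclear-encoded members were higher.

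The largest ratio at 2 months was that of Atp5g2 (ENSMUSG00000062683, chr15:102662864-102672352), which encodes the proton-carrying c subunit of the ATP synthase. Atp5g2 was at 468, 870.1, 359, 306, 276 and 775 scaled CPM. Its ratio of 2m AS to WT was 1.86 (1.83 to 1.88). The lowest ratio of a nuclear-encoded member was that of Atp5g3 (ENSMUSG00000018770, chr2:73908447-73911326), which encodes the same mature protein from another gene. Atp5g3 was at 1423, 1039, 1042, 1132, 1373 and 1012, and its ratio was 0.730 (0.723 to 0.737). The third of these genes, Atp5g1, was at 743, 1097, 533, 519, 511 and 1120.1. Atp5g1 and Atp5g2 thus stood highest in 2m AS and the mixed library, where Atp5g3 stood lowest together with 5m AS.

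Other members at the upper end were Uqcrb, a small subunit of complex III, with a ratio of 1.83 (1.81 to 1.85), Ndufc2, an accessory subunit of complex I, with 1.79 (1.77 to 1.82), and Ndufa12, also of complex I, with 1.75 (1.73 to 1.78). In complex IV the ratio was 1.69 for Cox5a and 1.67 for Cox8a. Cox8a, a single-pass subunit, was at 1832, 3060.4, 1515, 1401, 1175 and 3142 scaled CPM, so it was again 2m AS and the mixed library that stood above the rest. At the lower end were Uqcrc1, a large subunit of complex III, with 0.755 (0.744 to 0.765), and Ndufv1, the flavin-carrying subunit of complex I, with 0.765 (0.753 to 0.777). Uqcrc1 is counted below with the other members and not with the core. The 17 catalytic or core nuclear-encoded subunits had a median of 0.21 and the other 60, which included all 13 of complex IV, a median of 0.37.

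Among the mitochondrially encoded members at 2 months the log2 ratios ran from -2.01 for mt-Nd3 to 0.05 for mt-Atp8. mt-Nd1 was at -0.97, mt-Nd4l at -0.95, mt-Nd4 at -0.93, mt-Atp6 at -0.83, mt-Co2 at -0.78, mt-Nd5 at -0.73 and mt-Co3 at -0.69. After mt-Atp8, the members nearest to WT were mt-Cytb at -0.29, mt-Nd2 at -0.32 and mt-Co1 at -0.40. The neighbouring genes mt-Co3, mt-Nd3 and mt-Nd4l, which come from 1 primary transcript, thus had ratios of 0.619 (0.618 to 0.62), 0.248 and 0.519 (0.5 to 0.539).

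The promoters of the c-subunit genes are shown because their transcripts went opposite ways in 2m AS and in the mixed library. Nuclear respiratory factor 1 (NRF1), ETS factors, estrogen-related receptors (ERR) and YY1 are known regulators of nuclear genes for mitochondrial proteins. RefSeq promoters (GRCm38.p6, 250 bases upstream to 50 downstream of the start) were at hand for 66 of the 77 nuclear-encoded members, Atp5g1, Atp5g2 and Atp5g3 among them. The window of Atp5g2 lies inside the GENCODE span given above for the gene, so the RefSeq start used here is not the outer end of that span. The capitals mark a match to the NRF1 core motif GCATGCGC in Atp5g2 (chr15:102671054-102671113, minus strand, match starting 40 bases before the RefSeq start) and a match on the opposite strand to the ERR motif TCAAGGTCA in Atp5g3 (chr2:73911344-73911403, minus strand, 52 bases before).
Atp5g2: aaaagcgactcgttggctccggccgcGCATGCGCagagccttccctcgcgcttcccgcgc
Atp5g3: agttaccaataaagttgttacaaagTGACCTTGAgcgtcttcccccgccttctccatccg
The NRF1 core, searched on both strands like the others, was in 10 of the 66 members (15.2%) and in 2.80% of all 27025 promoters of this length. In Atp5g2 it overlaps a match on the opposite strand, and together they form the 10-base palindrome that was in 7.58% of members and 0.977% of all promoters. The ERR motif was in 2 members (3.03%), Atp5g3 and, downstream of the start, Sdhd, and in 0.407% of all promoters. The ETS motif CCGGAAGT was in 7.58% and 4% and the YY1 core AAGATGGC in 13.6% and 2.88%, with an 11-base form that contains it in 6.06% and 0.699%. Atp5g1, which was higher in the same libraries as Atp5g2, held no match to any of these motifs. The NRF1 palindrome was also in Atp5k and, downstream of the start, in Uqcrc1, whose ratios of 2m AS to WT were 0.823 and 0.755. It was in Cox6a1 and Ndufa11 as well, which were higher in 2m AS, at 2194 and 435 scaled CPM against 1475 and 345 in WT. A match is a description of the sequence and not of binding.

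At 5 months, both sets had less RNA in AS than in WT relative to other genes, and the mitochondrially encoded set was the lower. The median log2 ratio of 5m AS to WT was -0.48 for nuclear-encoded and -0.90 for mitochondrially encoded members, beside -0.20 over all 6795 genes. All 12 mitochondrially encoded members and 15 nuclear-encoded members were at least 1.5-fold lower and 1 nuclear-encoded member was higher, where 14.6% of all genes were lower and 8.04% higher. Without the scaling factors, plain CPM moved the median of all genes to 0.20, the split over all genes to 16.7% higher and 4.31% lower, and the members lower to 0 nuclear-encoded and 5 mitochondrially encoded. The medians relative to all genes, which a factor common to a library does not change, were -0.28 and -0.70, and 74 of 77 nuclear-encoded and 12 of 12 mitochondrially encoded members lay below the median of all genes.

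Sdhb (ENSMUSG00000009863, chr4:140961203-140979193), the iron-sulfur subunit of succinate dehydrogenase, had the lowest nuclear-encoded ratio at 5 months. It was at 567, 706, 331, 385, 435 and 667 scaled CPM, with a ratio of 5m AS to WT of 0.584 (0.574 to 0.594). Sdha, the flavoprotein subunit, was at 629, 596, 388, 445, 496 and 568, with a ratio of 0.618 (0.608 to 0.627). The membrane anchors Sdhc and Sdhd were at 343, 354, 239, 279, 330.1 and 319.7 and at 257, 393, 182, 222, 222 and 337. In all 4 genes of complex II the 5m AS library was the lowest of the 6. Their median log2 ratio to WT was -0.61, where it was -0.51 in complex I, -0.43 in complex III, -0.38 in complex IV and -0.53 in complex V.

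Also at the lower end at 5 months were Ndufc2 with a ratio of 0.589 (0.577 to 0.601), the Rieske iron-sulfur protein Uqcrfs1 of complex III with 0.605 (0.595 to 0.614), Ndufv1 with 0.628 (0.617 to 0.64), the catalytic beta subunit Atp5b of complex V with 0.636 (0.632 to 0.641) and Ndufc1 with 0.640 (0.631 to 0.648). At the upper end, Ndufa3 and Ndufb8, accessory subunits of complex I, had ratios of 0.987 (0.975 to 1.0) and 0.913 (0.901 to 0.926). Cox6b2, an isoform of a complex IV subunit best known from testis, was the only nuclear-encoded member above WT. Cox6b2 reached 20 CPM in 5m AS alone, with 21.9 against 8.34 in WT, so the filter took it in through the library where it was high. It was at 9.73, 13.7, 19.3, 15, 14.1 and 20.9 scaled CPM, with a ratio of 1.99 (1.81 to 2.19), while the ubiquitous isoform Cox6b1 was at 982, 1302, 791, 632, 596 and 1147. The mitochondrially encoded log2 ratios lay between -1.13 for mt-Cytb and mt-Nd4 and -0.72 for mt-Nd1, and mt-Nd3, at -0.83, lay within this range.

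**Figure D2:**
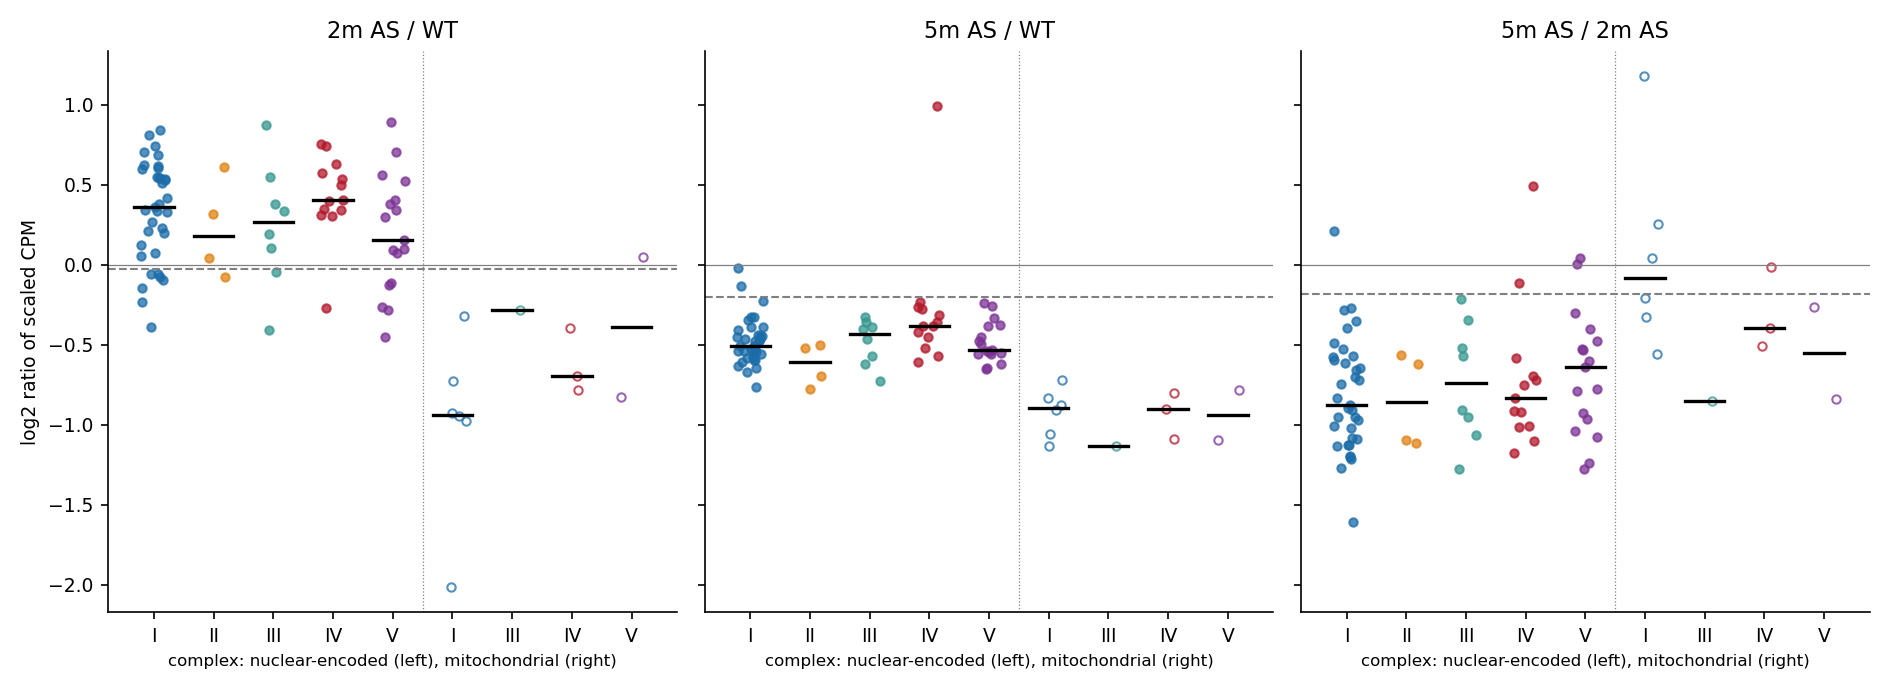
Log2 ratios of scaled CPM for the 89 members by complex, nuclear-encoded (filled points, left of the dotted line) and mitochondrially encoded (open points, right), in 3 comparisons. Black bars are medians, the dashed line is the median of all genes, and each point is 1 gene in 1 library per group, with nuclear-encoded members mostly above the line in 2m AS and below it in 5m AS.

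Set directly against 2m AS, the 5m AS library had less RNA of most nuclear-encoded members. The median log2 ratio was -0.79, beside -0.18 over all 6806 genes, and 53 of the 77 were at least 1.5-fold lower and 0 higher, where 24.9% of all genes were lower and 11.8% higher. With plain CPM 17 nuclear-encoded members were lower and 2 higher, and the split over all genes was 6.22% lower and 33.1% higher. The lowest was Ndufc2, at 252 scaled CPM against 766, a ratio of 0.329 (0.323 to 0.335). Atp5g2 was at 0.412 (0.406 to 0.419), Uqcrb at 0.414 (0.408 to 0.419) and Ndufa12 at 0.415 (0.408 to 0.422). This comparison shares the 2m AS library with that of 2m AS to WT. At the upper end were Cox6b2 with 1.41 (1.29 to 1.54), Ndufa3 with 1.16 (1.14 to 1.17), Atp5k with 1.03 (1.02 to 1.04) and Atp5g3 with 1.003 (0.993 to 1.01). Of these, Cox6b2 had passed the CPM filter through 5m AS alone. The median of the mitochondrially encoded members was -0.30, which became 0.20 with plain CPM, beside 0.32 for all genes with plain CPM. mt-Nd3 was 2.26-fold (2.24 to 2.29) higher at 5 months, and mt-Cytb had a ratio of 0.555 (0.553 to 0.557) and mt-Atp8 0.560 (0.521 to 0.602).

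The mitochondrially encoded median log2 ratio to untreated 5m AS was below 0 in early treated and slightly above 0 in late treated. The nuclear-encoded median was below 0 in both, with 50 of 77 members below 0 in early and 56 of 77 in late treated. Against 5m AS the mitochondrially encoded median was -0.35 in early treated and 0.09 in late treated, and the nuclear-encoded median was -0.08 and -0.20, beside -0.00 and -0.02 over all genes. In early treated, 0 of 77 nuclear-encoded members passed 1.5-fold in either direction, where 3.9% of all genes were higher and 4.25% lower, and mt-Nd1, with 0.608 (0.604 to 0.611), was the only mitochondrially encoded member lower. In late treated, 9 nuclear-encoded members were lower and 0 higher, where 10.2% of all genes were lower and 7.81% higher. mt-Atp8, with 1.51 (1.40 to 1.63), was the only mitochondrially encoded member higher there, while mt-Atp6, on the same messenger RNA, had a ratio of 1.13. mt-Nd3 had 1.45 (1.44 to 1.46) and mt-Nd4l 0.690 (0.656 to 0.726). Its partner mt-Nd4, on the same messenger RNA as mt-Nd4l, was at 5592 scaled CPM in late treated and 4958 in 5m AS. Both comparisons share the 5m AS library. Malat1, a long noncoding RNA retained in the nucleus, was at 61.1, 72.8, 44.8, 165 and 146 scaled CPM in the first 5 libraries and at 64.6 in the mixed one, so it was higher in both treated libraries than in the others, and its part in these ratios was not tested.

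Complex II was the complex in which each gene was higher in both treated libraries than in 5m AS. In late treated the ratio was 1.28 (1.26 to 1.3) for Sdha, 1.31 (1.29 to 1.34) for Sdhb, 1.38 (1.35 to 1.41) for Sdhc and 1.22 (1.19 to 1.25) for Sdhd. In early treated the log2 ratios of the 4 genes ran from 0.20 to 0.29. None of these passed 1.5-fold. The medians by complex in late treated were -0.20 in complex I, 0.37 in complex II, -0.24 in complex III, -0.35 in complex IV and -0.10 in complex V, and in early treated -0.10, 0.22, -0.08, -0.11 and -0.02.

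The catalytic or core subunits had a higher median than the other nuclear-encoded members in late treated 5m AS, with ranges that overlapped. The highest ratio of a nuclear-encoded member there was that of Ndufs1 (ENSMUSG00000025968, chr1:63143596-63176833), the largest iron-sulfur subunit of complex I. It was at 199, 231, 137, 173, 199 and 197 scaled CPM, with a ratio of late treated to 5m AS of 1.45 (1.41 to 1.49). The lowest was that of Ndufa3 (ENSMUSG00000035674, chr7:3617373-3620327), at 747, 636, 737, 509.9, 413 and 699.8, with a ratio of 0.560 (0.552 to 0.569). In complex V, Atp5b, at 3109.6, 2851, 1978, 2315, 2536 and 2807, had a ratio of 1.28 (1.27 to 1.29), and the small subunits Atp5e, which is counted with the core here, and Atp5j2 had 0.588 (0.581 to 0.594) and 0.581 (0.574 to 0.588). In complex III, Uqcrc2, a large subunit counted here with the other members and not with the core, had 1.3 (1.28 to 1.33) and the small subunit Uqcr10 had 0.621 (0.614 to 0.628). The 17 catalytic or core subunits had a median log2 ratio of 0.26 in late treated and 0.15 in early treated, and the other 60 had -0.33 and -0.15. The core set held all 4 genes of complex II, and all 13 of complex IV were among the others, so role and complex are partly confounded here. Within complex I the core and other medians in late treated were 0.04 and -0.33, and within complex V they were 0.205 and -0.17. In complex V the log2 ratios in late treated ran from -0.77 to 0.36 in the core and from -0.78 to 0.40 in the others, and the highest was that of Atp5g3, with 1.32 (1.304 to 1.33).

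Transcript length moved with this difference. With the 77 nuclear-encoded members divided at their median transcript length of 645 bases, the 39 shorter ones had a median log2 ratio of late treated to 5m AS of -0.37 and the 38 longer ones 0.00. Across these genes, which are not independent replicates and share the libraries, Spearman's rho between length and log2 ratio was 0.63, and 0.22 across all genes tested. For early treated against 5m AS the medians were -0.22 and 0.06, with a rho of 0.50 beside 0.18. For 5m AS against WT they were -0.39 and -0.54, with -0.60 beside 0.05, and for early against late treated 0.20 and -0.00, with -0.61 beside -0.18. The relation was weaker in the remaining comparisons. There rho was -0.01 for 2m AS against WT, -0.24 for 5m against 2m AS and -0.14 for mixed against WT. Across all genes tested it was -0.32, 0.26 and -0.28. With the longest annotated transcript in place of the median over transcripts, an alternative added after seeing the data, rho was 0.52 for late treated, 0.44 for early treated, -0.48 for 5m AS against WT and -0.52 for early against late treated. Cytosolic ribosomal proteins had medians of -0.37 in early treated and -0.62 in late treated. Of 82 of them, 35 were on the shorter and 47 on the longer side of 645 bases, and in late treated the medians of these were -0.65 and -0.59, with a rho of 0.10. The GC content of the transcripts also moved with the ratios of the treated libraries to 5m AS. Across the 77 members its rho was -0.44 in early and -0.28 in late treated, beside -0.26 and -0.19 across all genes tested. For 5m AS against WT it was 0.04, and for early against late treated -0.01. Between length and GC content rho was -0.09. Whether length, GC content or the role of the subunit sets these ratios was not tested. Core subunits are mostly the longer transcripts.

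**Figure D3:**
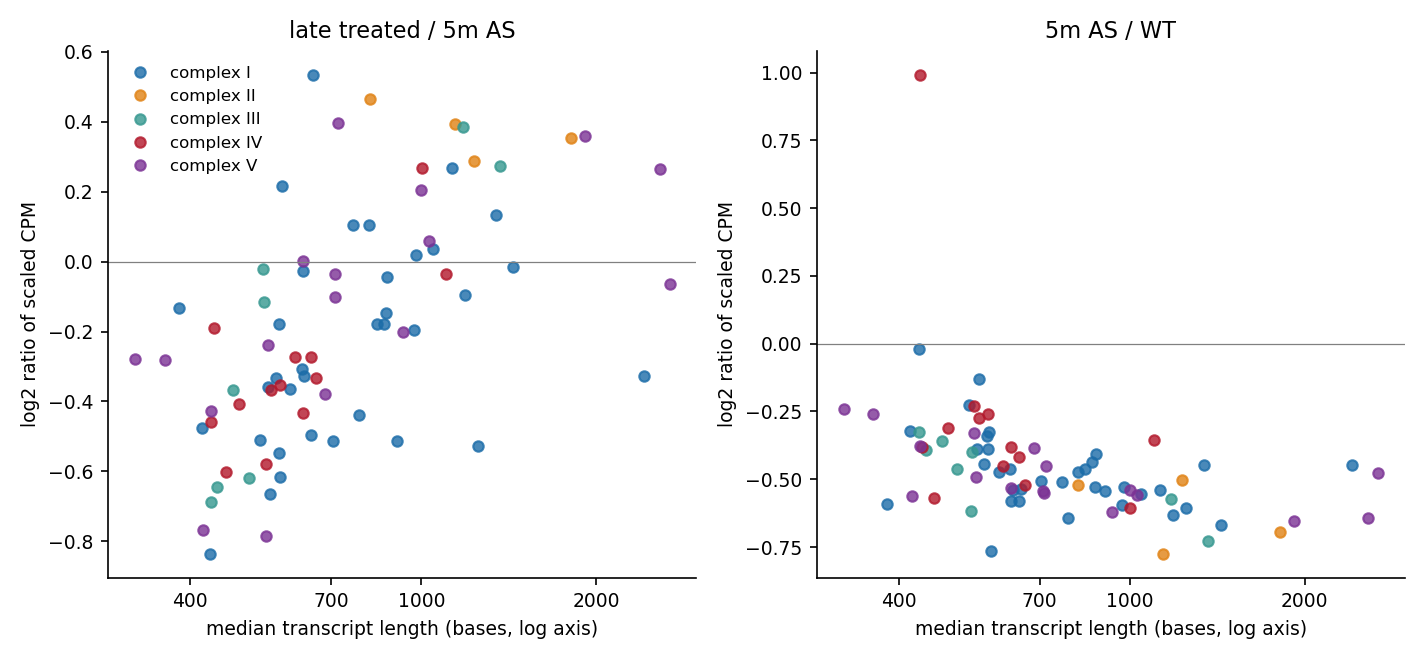
Log2 ratio of scaled CPM against the median length of the annotated protein-coding transcripts (log axis) for the 77 nuclear-encoded members, coloured by complex, for late treated against untreated 5m AS and for 5m AS against WT. The points climb to the right in the left panel (rho 0.63) and fall to the right in the right panel (rho -0.60), and the lone high point on the right is Cox6b2.

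**Figure D4:**
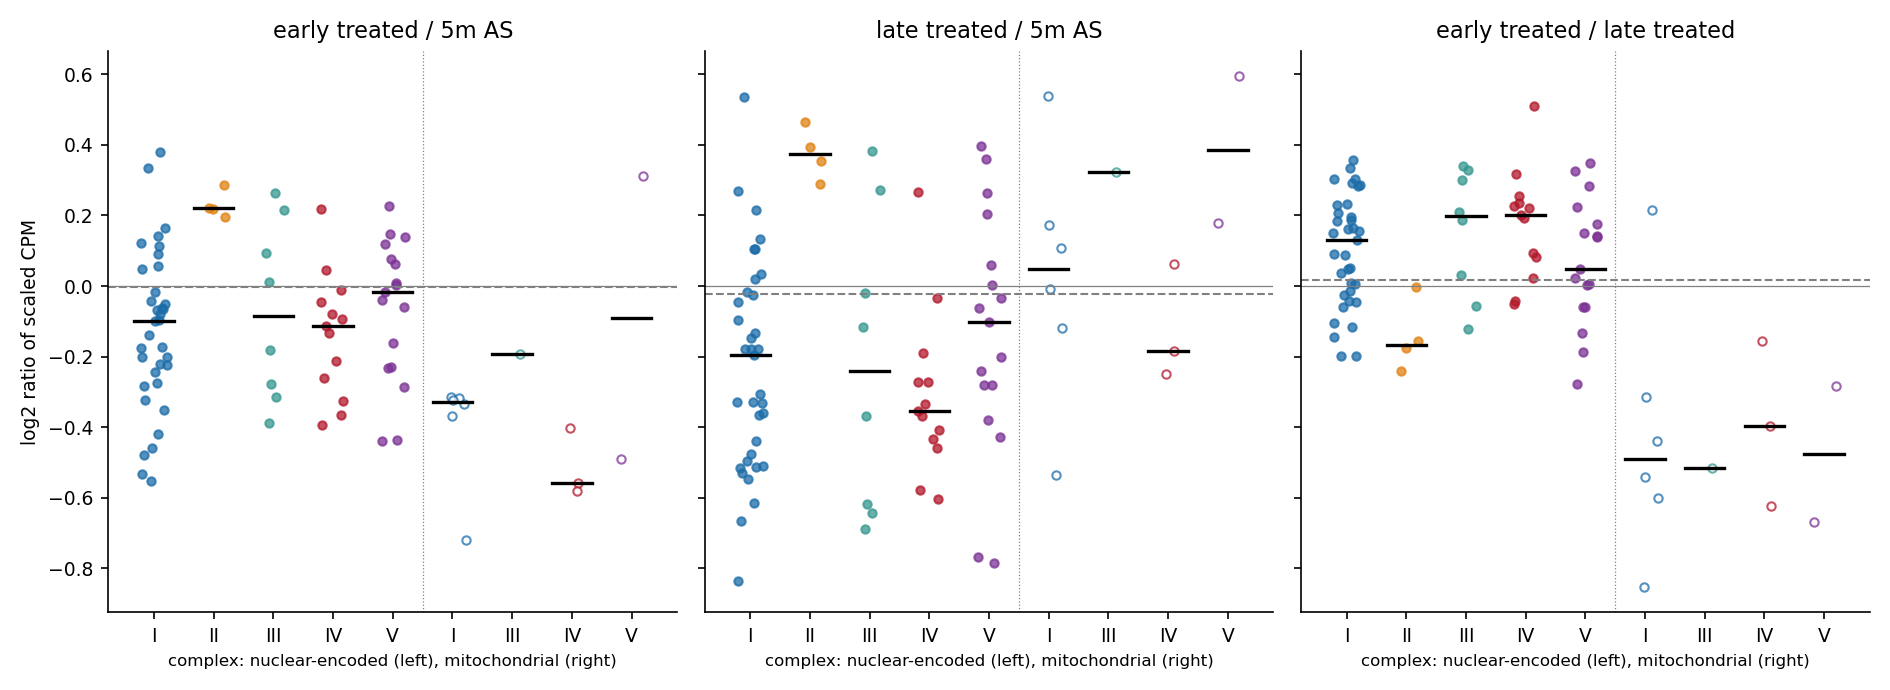
Log2 ratios of scaled CPM for the 89 members by complex in the comparisons with hEV-treated 5m AS, with filled points for nuclear-encoded and open points for mitochondrially encoded members, black bars for medians and a dashed line for the median of all genes. The 4 points of complex II lie above 0 in both comparisons with untreated 5m AS. In early against late treated 11 of 12 open points lie below 0, and that of mt-Nd4l lies above it at 0.22.

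Early against late treated, counted with 1 software version, had a mitochondrially encoded median of -0.48 and a nuclear-encoded median of 0.13, beside 0.02 over all 6474 genes. Of the mitochondrially encoded members 4 were at least 1.5-fold lower in early treated, where 1.85% of all genes were lower and 3.35% higher. These were mt-Nd3 with 0.554 (0.550 to 0.558), mt-Atp6 with 0.629 (0.627 to 0.631), mt-Co2 with 0.650 (0.647 to 0.653) and mt-Nd1 with 0.659 (0.655 to 0.663). No nuclear-encoded member passed 1.5-fold. The highest was Ndufa4, a small subunit of complex IV first described in complex I, at 1669 scaled CPM in early and 1173 in late treated, a ratio of 1.42 (1.41 to 1.44), and the lowest was Atp5g3 with 0.825 (0.816 to 0.833).

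The mixed library, which is labelled female, had more RNA of nuclear-encoded members and less of mitochondrially encoded members than WT, with which 2m AS was compared too. Its median log2 ratio to WT was 0.27 for nuclear-encoded and -1.07 for mitochondrially encoded members, beside -0.09 over all 6636 genes. There were 11 nuclear-encoded members higher and 1 lower, where 7.34% of all genes were higher and 9.96% lower, and 10 mitochondrially encoded members were lower. With plain CPM 22 nuclear-encoded members were higher, and the split over all genes was 11.1% higher and 6.72% lower. Uqcrb, with 1.73 (1.71 to 1.75), Cox8a, with 1.72 (1.70 to 1.73), and Atp5g2, with 1.65 (1.63 to 1.68), were at the upper end together with Cox6b2, with 2.15 (1.96 to 2.36). Ndufv1, with 0.652 (0.641 to 0.663), was the member lower, and Atp5g3 was next with 0.711 (0.704 to 0.718). The share of this pattern that belongs to each of the 2 animals, to sex or to the software version cannot be told apart. Of the isoforms of contractile tissue and brown fat, Cox7a1 was at 59.7, 49.5, 45.8, 47.2, 40.1 and 81.3 scaled CPM beside 1441, 1901, 1003, 915, 796 and 1807 for Cox7a2. Cox8b, left out by the threshold, had 9, 44, 43, 8, 8 and 258 UMIs, and the brown fat gene Ucp1 had 0 UMIs in the mixed library. Against WT, cytosolic ribosomal proteins had a median of 0.55 in the mixed library, with 35 of 83 higher and 1 lower. At their threshold of 5 scaled CPM, 7.87% of all genes were higher and 8.61% lower. Genes other than the members with transcripts of at most 645 bases had a median of 0.17, and longer ones -0.11. For nuclear-encoded members these medians were 0.31 and 0.25.

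Genes that build, supply or regulate the complexes were counted from lists, for those that reached 5 scaled CPM in either compared library. Cytochrome c (Cycs), the mobile electron carrier, had a log2 ratio of -1.07 in 5m AS against WT and of 0.68 in early treated against 5m AS. Among subunits the symbol rule leaves out, Cox4i1 had a log2 ratio to WT of 0.54 at 2 months and -0.47 at 5 months, and Ndufab1 had 0.77 and -0.47. Atp5if1, the inhibitor of the ATP synthase (Atpif1 in the files), was at 1005, 1559, 815, 643, 515 and 1552 scaled CPM, lowest in late treated. Of assembly factors, which put the complexes together, 15 of 51 were at least 1.5-fold higher and 2 lower in 2m AS against WT, with a median of 0.30, where 7.78% of all genes at this lower threshold were higher and 8.28% lower. In 5m AS against WT 6 of 50 were lower and 0 higher, with a median of -0.38, where 12% of all genes were lower and 11.9% higher. Of the mitochondrial ribosomal proteins, which translate the mitochondrially encoded subunits, 20 of 78 were higher in 2m AS against WT, with a median of 0.42, and 55 of 78 were lower in 5m AS against 2m AS, with a median of -0.77, where 19.6% of all genes were lower and 16.9% higher. Against WT, 10 of 78 were higher in the mixed library, where 7.87% of all genes were higher and 8.61% lower, and in early against late treated 1 of 78 was higher, where 3.7% of all genes were higher and 2.02% lower.

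The citric acid cycle, which feeds electrons to complexes I and II, had its median below WT at 5 months. The median was 0.03 at 2 months and -0.60 at 5 months, with 10 of 17 genes lower in the latter, where 12% of all genes were lower and 11.9% higher. Against 5m AS it was 0.26 in early treated, with 1 gene higher where 3.98% of all genes were higher and 4.86% lower, and 0.36 in late treated, with 2 higher. Suclg2, a subunit of succinyl-CoA ligase, had -0.98 in 5m AS against WT and 0.87 in late treated against 5m AS, and mitochondrial isocitrate dehydrogenase Idh2 had -0.98 and 0.70. Among regulators of mitochondrial genes, the nuclear receptor Esrra was at 157, 99.1, 92.0, 124, 135 and 118 scaled CPM, below WT in all 5 other libraries. Its coactivator Ppargc1a was at 27.3, 28.7, 16.3, 23.4, 29.5 and 32.4, lowest in 5m AS. Lrpprc, which stabilises mitochondrial messenger RNAs, had a log2 ratio of 1.21 in early and 1.55 in late treated against 5m AS, and Tfam, which packages and helps transcribe mitochondrial DNA, was at 49.2, 60.2, 37.3, 38.4, 43.6 and 44.9. For the biogenesis list as a whole 5 of 30 were lower and 1 higher in 5m AS against WT, where 12% of all genes were lower and 11.9% higher, and 2 of 31 were lower and 7 higher in late treated against 5m AS, where 11.1% of all genes at this threshold were lower and 7.94% higher. Proteins of the outer membrane and of import had a median against WT of 0.28 at 2 months and -0.32 at 5 months.

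The make-up of the sections differed as well. The summed scaled CPM of 6 early proximal tubule markers was 9245, 6515, 3299, 5614, 7231 and 6614, and that of 5 injured tubule markers was 12.1, 33.8, 441, 296, 92.9 and 19.9. Distal convoluted tubule markers (4 genes) summed to 1289, 772, 410, 1036, 1195 and 1412, and macrophage markers (6 genes) to 117, 158, 1025, 626, 449 and 215. The 5m AS library was thus the lowest for the early proximal and distal convoluted tubule lists and the highest for the injured tubule and macrophage lists. Late proximal tubule markers (6 genes) summed to 1941, 2229, 1204, 623, 906 and 220. For this list 5m AS lay below WT and 2m AS but above both treated libraries and the mixed one. Slco1a1, 1 of the 6 genes, had at most 3 UMIs in the mixed library, which is labelled female. For this list sex and the make-up of the mixed section cannot be told apart. Thick ascending limb markers (5 genes) went another way, with 2749, 4247, 4685, 2658, 2613 and 5709, and principal cell markers (5 genes), with 485, 360.2, 587, 487, 333 and 545, were highest in 5m AS. Markers of skeletal muscle or brown fat summed to at most 1.2. In such spots fewer cells of a type and less RNA per cell cannot be told apart, and the part of these shifts in the members' ratios was not tested beyond the values within regions. Spots with at least 500 UMIs were therefore grouped into 14 regions by genes other than the members and the mitochondrially encoded genes, scaled within each library, and each region is called by its leading gene. This scaling was chosen after seeing the data, because with the genes scaled over all spots 11 of 16 regions were at least 90% from 1 library.

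The Pvalb-led region, whose 10 leading genes also held the distal convoluted tubule markers Slc12a3 and Trpm6, had the highest share of nuclear-encoded members in all 6 libraries. The share was 7.11%, 8.12%, 6.92%, 7.28%, 6.60% and 9.33% of the UMIs outside mitochondrially encoded genes. In the Clec2h-led region, led also by the early proximal tubule markers Slc5a12 and Slc6a19, it was 6.34%, 7.21%, 5.91%, 5.42%, 5.19% and 7.86%. Against the Clec2h-led region of the same library, the Pvalb-led region had a nuclear-encoded median log2 ratio between 0.14 and 0.38, with 73 to 77 of the 77 members above 0. The largest of these medians were in early and late treated, at 0.38 and 0.29. In early treated 6 nuclear-encoded and 5 mitochondrially encoded members were at least 1.5-fold higher there. In late treated 1 mitochondrially encoded member was, and in the other 4 libraries 0 members were. The shares of all genes higher were 3.23%, 5.8%, 4.39%, 8.46%, 6.84% and 7.76%.

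The Havcr1-led region, led by the injury markers Havcr1 and Krt20, had the lowest nuclear-encoded share of all regions in the 4 libraries of AS mice, at 6.36%, 4.61%, 4.24% and 4.07% (2m AS, 5m AS, early and late treated). Markers of macrophages (median log2 fold 2.24 over other spots) and fibroblasts (2.07) were also higher in this region, and their part was not tested. WT had only 8 spots of it and gave no value, and the mixed library had 7.09% in 49 spots. Within 5m AS all 12 mitochondrially encoded members were at least 1.5-fold lower in this region than in the Clec2h-led region, with a median of -0.77, and 3 of 77 nuclear-encoded members were lower, with a median of -0.30, where 5.84% of all genes were lower. In early treated 5 nuclear-encoded and 3 mitochondrially encoded members were lower, where 6.38% of all genes were. In 2m AS, late treated and the mixed library 0, 1 and 5 mitochondrially encoded members and no nuclear-encoded member were lower, where 4.05%, 4.96% and 4.55% of all genes were. The mitochondrially encoded median against the Clec2h-led region was also below 0 in 2m AS, at -0.23, in early treated, at -0.46, in late treated, at -0.52, and in the mixed library, at -0.58. In the Cdkn1c-led region, led also by the podocyte markers Nphs1 and Wt1, the mitochondrially encoded median was between -0.43 and -0.28 in the 6 libraries.

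The comparisons with WT kept their direction in most of the regions shared with WT, and those among the libraries of AS mice were more mixed. For 5m AS against WT, with 9 regions of at least 20 spots in both libraries, the nuclear-encoded median relative to all genes lay below 0 in 9 of 9, from -0.41 in the Cdkn1c-led to -0.13 in the Cyp7b1-led region, and the mitochondrially encoded one lay between -1.15 and -0.21. For 2m AS against WT the nuclear-encoded median was above that of all genes in 10 of 10 regions, between 0.26 and 0.41. The mitochondrially encoded median was below it in 9 of 10, and the exception was the Cyp7b1-led region, where the late proximal tubule list was highest, with 0.06. The Sfrp4-led region, led by the smooth muscle markers Myh11, Acta2 and Cnn1, was at -0.01, and the other 8 lay between -1.25 and -0.82. In 2m AS the mitochondrially encoded share of UMIs was 9.44% in the Cyp7b1-led and 9.83% in the Sfrp4-led region, where it was 6.34% in the Clec2h-led region. For 5m against 2m AS the nuclear-encoded median was below that of all genes in 12 of 12 regions, while the mitochondrially encoded one was above it in 6 and below it in 6, between -1.13 and 1.09. For early treated against 5m AS the nuclear-encoded median was below that of all genes in 9 of 12 regions and the mitochondrially encoded one in 10. For late treated against 5m AS the nuclear-encoded median was below it in 11 of 12 regions and the mitochondrially encoded one above it in 9. Relative to all genes, the mitochondrially encoded median of early against late treated was below 0 in 13 of 13 regions, between -1.13 and -0.31.

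**Figure D5:**
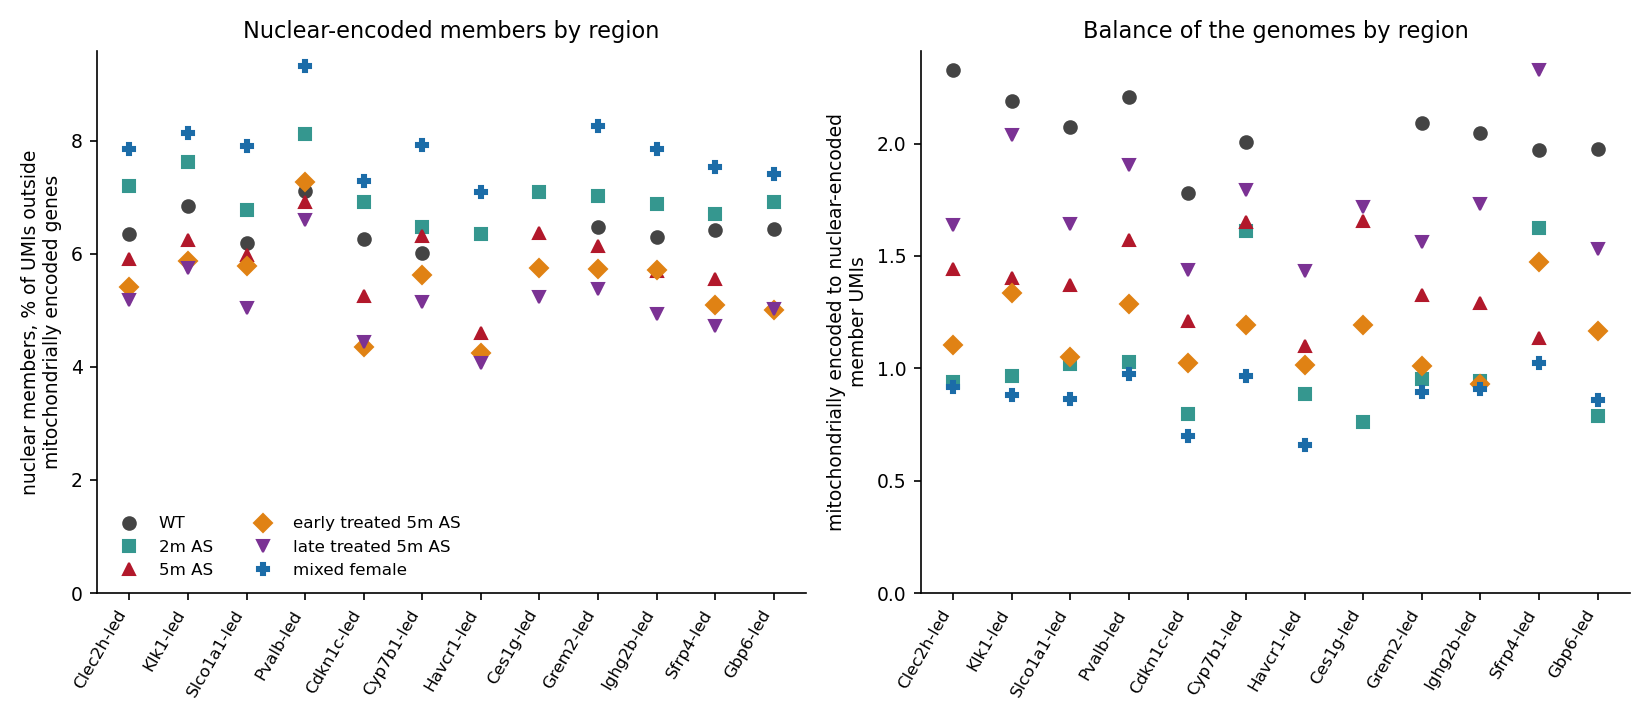
Share of nuclear-encoded members in the UMIs outside mitochondrially encoded genes (left) and ratio of mitochondrially encoded to nuclear-encoded UMIs (right) in 12 regions, each called by its leading gene, with 1 symbol per library and no point where a library had under 20 spots. The Pvalb-led region is highest on the left in each library, and on the right WT stands above 2m AS and the mixed library in each region that it shares with them.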

How the data were processed

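The authors' deposited matrices held raw UMI counts for each spot, made with Space Ranger 1.2.1 or 1.3.1 per the file headers, on mm10 per the submitters' processing notes. The sources used here do not name the annotation version or strand handling. UMIs were summed per library (48940875 to 91976637) and scaled with TMM factors (edgeR 4.0.16, R 4.3.3) of 0.858 to 1.18. Ratios carry 95% Clopper-Pearson intervals, checked on simulated counts. A floor of 3 counts was 0.0407 to 0.0521 scaled CPM. Coordinates and transcript lengths came from GENCODE M21 and promoters from RefSeq. Regions used scanpy 1.11.5 and leidenalg 0.10.2 (2000 variable genes, 30 components, 15 neighbours, resolution 0.8, seed 0), with 255 spots under 500 UMIs left out. The members, lists and tests were chosen with earlier results of these data known. Members named per comparison were the mitochondrially encoded ones, the 8 nuclear-encoded ones at either end, isoform pairs and the Sdh genes, and up to 4 members per list, with a selection given in the text. Esrra and Tfam are named beyond this rule in some comparisons and were chosen after their values were seen. Alternatives changed the scaling, spot weighting, region standardisation and CPM filter. Reads shared between close paralogs or pseudogenes of these subunits cannot be told apart in these counts. Doublets do not apply to spots.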

Additional observations from a re-analysis of the deposited data

Results flagged for a closer look

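Nuclear-encoded members differed in sign between the ages. Their median log2 ratio to WT, relative to the median of all genes, was 0.37 at 2 months and -0.28 at 5 months, and the difference was not tested because each age had 1 library. Mitochondrially encoded members differed in sign between the treated libraries. Relative to all genes their median against untreated 5m AS was -0.35 in early treated and 0.11 in late treated, and this difference was not tested either. With spots standardised by the planned regions at resolution 0.4, the late treated value was -0.13, so the signs were then the same. Both pairs share a reference library.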

How the results depend on the processing

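Values are median log2 ratios, nuclear-encoded before mitochondrially encoded. Each spot weighted equally gave -1.03 (5m AS to WT, mitochondrial), 0.37 and -0.82 (2m AS to WT), -0.83 and -0.34 (5m to 2m AS), -0.16 and -0.40 (early to 5m AS), 0.0593 (late to 5m AS, mitochondrial), 0.0647 and -0.52 (early to late) and -1.15 (mixed to WT, mitochondrial). Median-of-ratios factors gave -0.44 and -0.86, 0.40 and -0.69, -0.81 and -0.32 in the first 3 comparisons, -0.49 (early to late, mitochondrial) and 0.32 and -1.02 (mixed). Leaving the mitochondrially encoded genes out of totals gave -0.39 and -0.82 (5m AS to WT), -0.70 and -0.21 (5m to 2m AS) and 0.0591 (late, mitochondrial). Plain CPM gave -0.0790 and -0.50, 0.24 and -0.86, -0.29 and 0.20, -0.0215 and -0.29, -0.15 and 0.13, -0.47 (early to late, mitochondrial) and 0.39 and -0.94 (mixed). Region-standardised with the planned clustering at resolution 0.8 the values were 0.43 and -0.85 (2m AS to WT), -0.15 and -0.49 (early), -0.26 and 0.45 (late) and -0.28 (early to late, mitochondrial), and at 0.4 they were 0.40 and -0.71, -0.59 and 0.15 (5m to 2m AS), -0.32 and -0.63, -0.40 and -0.0295, and -0.46. With genes scaled within each library, chosen after seeing the data, 0.8 gave -0.41 and -0.87 (5m AS to WT), 0.37 and -0.85 (2m AS to WT), -0.26 (5m to 2m AS, mitochondrial), -0.13 (early, nuclear), -0.29 and 0.13 (late), -0.52 (early to late, mitochondrial) and -1.16 (mixed, mitochondrial), and 0.4 gave -0.44 and -0.95, 0.36 and -0.84, -0.75 and -0.23, -0.13 (early, nuclear), -0.30 and 0.13, and -1.13 (mixed, mitochondrial). The planned clustering shared no region for 5m AS to WT and mixed to WT, nor, at 0.8, for 5m to 2m AS, and gave no value there. Settings that change only the scaling factor of a library leave medians relative to all genes as they were. Only the spot weighting and region settings could therefore change a sign. Relative to all genes, the nuclear-encoded median kept its sign in each of 7 to 9 settings per comparison. The mitochondrially encoded one changed sign for 5m to 2m AS (-0.15 to 0.49) and late to 5m AS (-0.13 to 0.42). The cause was not tested. Counts of members past 1.5-fold, both genomes together, moved more than 1.5 times as follows. For 5m AS to WT, 27 lower became 5 with plain CPM, 17 without mitochondrially encoded genes in totals and 5 at 2-fold, and 1 higher became 2 without the CPM filter and 0 at 2-fold. For 2m AS to WT, 16 higher became 10 with plain CPM, 26 with median-of-ratios factors and with the planned regions at 0.8, and 0 at 2-fold, and 8 lower became 1 at 2-fold. For 5m to 2m AS, 55 lower became 17 with plain CPM and 24 at 2-fold, and 1 higher became 4 with plain CPM, 3 with the planned regions at 0.4 and 2 without the CPM filter. For early to 5m AS, 0 higher became 1 with either clustering at 0.8 and without the CPM filter, and 1 lower became 0 to 19, with 2 under median-of-ratios factors and without mitochondrially encoded genes in totals, 4 with spots weighted equally, 5 and 19 with the planned regions, 4 and 3 with the added ones, 3 without the CPM filter and 0 at 2-fold. For late to 5m AS, 1 higher became 0 to 3 and 9 lower became 25 with the planned regions at 0.4 and 0 at 2-fold. For early to late, 4 lower became 1 with the planned regions at 0.8 and 0 at 2-fold. For mixed to WT, 11 higher became 22 with plain CPM and 1 at 2-fold, and 11 lower became 6 at 2-fold. Medians over spots of the mitochondrially encoded to nuclear-encoded ratio were 2.03, 0.939, 1.24, 0.994, 1.46 and 0.818, in the same order of libraries as the ratios of sums, which moved by less than their counting interval without the CPM filter. No paired analysis was possible because each group held 1 library. Few UMIs limit the precision of mt-Atp8, Cox6b2, Cox7a1 and mt-Nd4l.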
